A study of Mus musculus with 31 samples.

Results

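Whole spleen of mice with CD4-Cre driven Vav1-Myo1f T cell tumors was compared with whole spleen of CD4-Cre control mice, by RNA sequencing of gene counts. The comparison took the spleen libraries of the CD4-Cre set, 6 of the 31 libraries of the series: 3 tumor spleens from mice VM388, VM58 and VM98, with genotype CD4-CreVav1Myo1f fl/wt, and 3 control spleens from mice VM211, VM216 and VM645-WT, with genotype CD4-Cre(WT). All mice are labelled strain C57B/6, and no age is given. Every group of this set carries CD4-Cre, a Cre recombinase driven by Cd4 regulatory sequence, and the labels separate tumor from control mice by the heterozygous conditional Vav1-Myo1f allele. Cre of this kind acts while T cells mature in the thymus and so reaches CD8+ as well as CD4+ T cells. A whole spleen holds B cells, myeloid cells and stroma beside T cells, and in such bulk RNA fewer cells of a type and less RNA per cell cannot be told apart. CD4+ cell libraries of the same set (3 control and 4 tumor libraries, the tumor ones including a mouse labelled VM645) and whole spleens of another model, CD4-CreERT2, with 3 tumor and 3 control mice, are used where the spleen values are set against them.

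The exchange factor VAV1 loads small GTPases such as RAC after T cell receptor signalling, and its C-terminal domains restrain its activity. MYO1F is a class I myosin found mainly in immune cells. A fusion of both replaces the C-terminal part of VAV1 with part of MYO1F, and VAV1 fusions are known from human peripheral T cell lymphoma, a group of cancers of mature T cells. The spleen filters blood: red pulp macrophages clear aged red cells and recycle iron, marginal zone B cells and macrophages catch particles at the border of the white pulp, and T and B cells meet in the white pulp. GATA3 drives the T helper 2 state, whose cytokine IL-4 turns on class switching of B cells to IgG1 and IgE.

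Depth was 25681614 to 36985628 gene counts per spleen library, with 22131 to 23167 genes detected. Levels are CPM, that is, counts divided by TMM-adjusted library totals, and are given in the order VM211, VM216 and VM645-WT for controls and VM388, VM58 and VM98 for tumors. Control spleens resembled each other (Spearman's rho 0.97 to 0.98 over genes), whereas tumor spleens did so less (0.90 to 0.94). VM98 stood apart: its rho with the other tumors was 0.90, below the 0.93 to 0.95 it had with the controls. Values without VM98 are therefore given beside the results that it alters. This choice was made from its values, so calls without VM98 describe VM388 and VM58 and are no separate support. Xist and Ddx3y counts showed 2 males and 1 female among the controls and 1 male and 2 females among the tumors. Of 17050 genes tested with edgeR's quasi-likelihood test, 0 passed at a Benjamini-Hochberg adjusted p under 0.05 (0% of genes tested); the lowest adjusted p was 0.207, and 2373 genes had an unadjusted p under 0.05. DESeq2, run as an alternative, called 325 genes higher and 272 lower in tumors (1.67% and 1.40% of 19414 genes), and edgeR without VM98 called 197 higher and 411 lower (1.09% and 2.27% of 18098 genes). No gene below therefore passed the main test, and every difference is given as levels. Ranges that do not overlap between groups are the second description used: all 3 tumors lay above all 3 controls for 11.0% of genes, and below them for 11.2%. Among VM388 and VM58 alone these shares were 20.5% and 19.8%. A count of list members that do not overlap is to be read against these shares. The genes named within lists for non-overlapping ranges were picked after their values were seen.

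**Figure D1:**
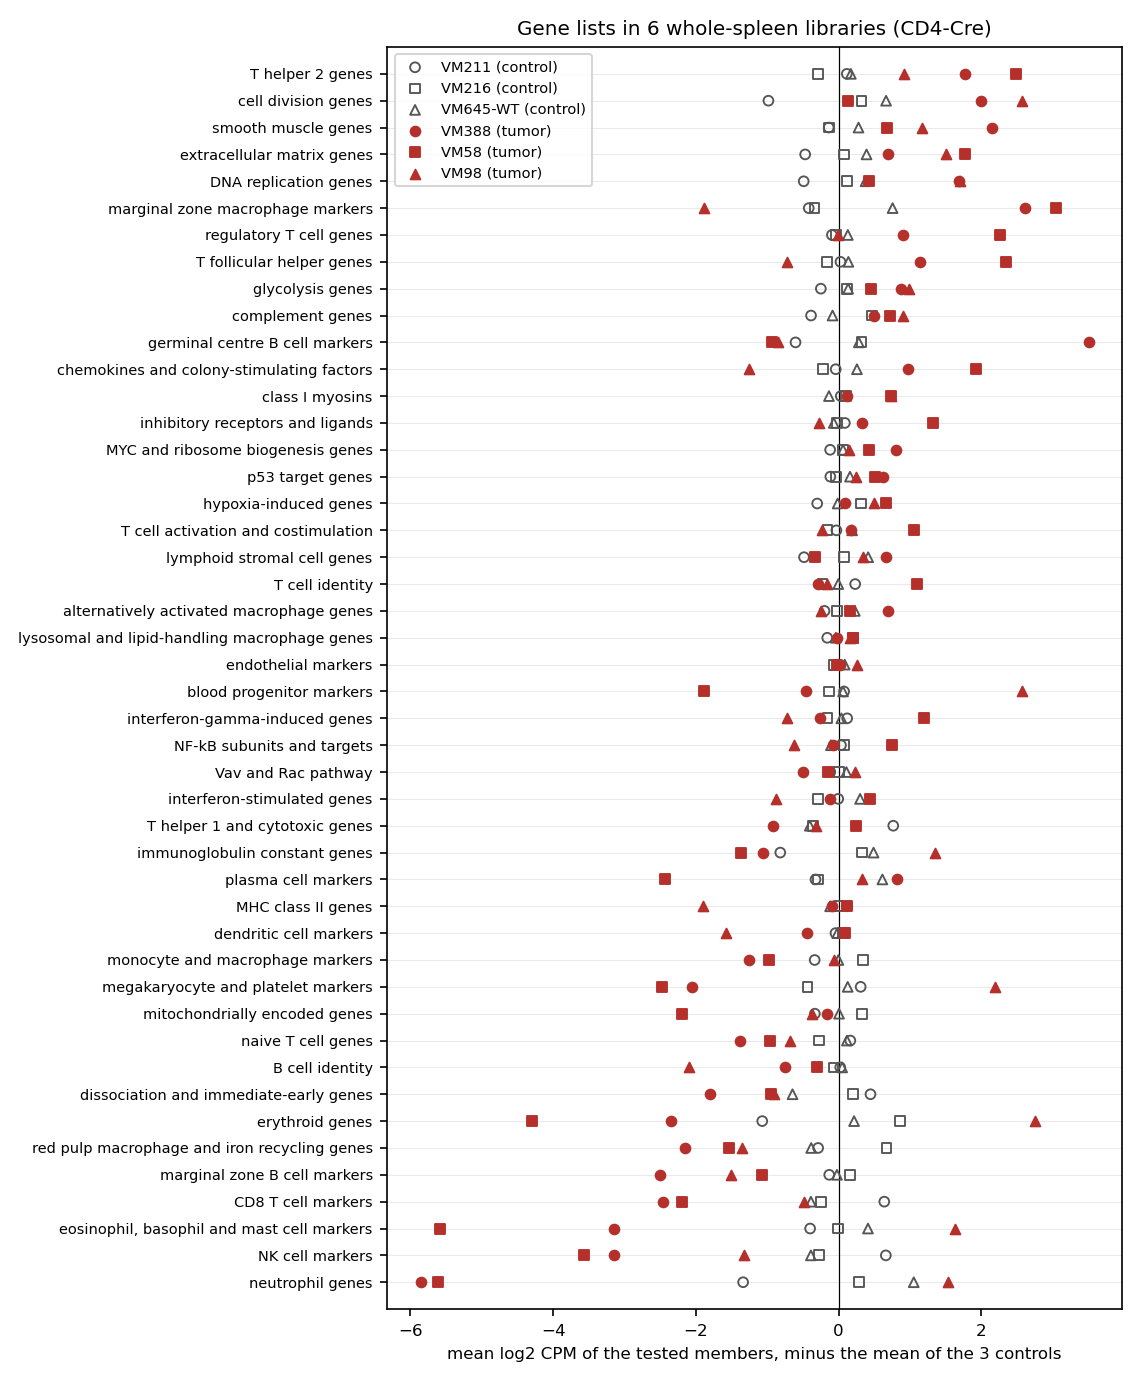
Mean log2 CPM of the tested members of 46 gene lists (rows) in 6 spleen libraries, minus the mean of the 3 controls (x axis, log2 units). Grey open symbols are controls and red filled symbols are tumors; VM388 and VM58 sit together at the far left for neutrophil genes (-5.86 and -5.61), whereas VM98 lies at 1.54.

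The plot of list scores shows lists that lay to one side and lists that split the tumors. The mean scores of T helper 2, smooth muscle and glycolysis genes were higher in each of the 3 tumors than in any control. Those of NK cell markers, red pulp macrophage genes, marginal zone B cell markers and naive T cell genes were lower in each of them. The scores of neutrophil, basophil, erythroid and platelet genes parted the tumors instead, low in VM388 and VM58 and high in VM98.

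Vav1 (ENSMUSG00000034116; chromosome 17, 57279100 to 57328031, plus strand in GRCm38) was measured at 206, 211 and 199 CPM in the controls and 277, 343 and 346 CPM in the tumors, a log2 fold change of 0.65 ± 0.20 (SE; edgeR unadjusted p = 0.0146, adjusted p = 0.275). Every tumor lay above every control. Myo1f (ENSMUSG00000024300; chromosome 17, 33555707 to 33607764, plus strand) did not separate the groups, at 310.3, 374 and 362 CPM in the controls and 199, 346 and 719 CPM in the tumors. VM388 had the lowest level and VM98 the highest, and the log2 fold change of 0.27 ± 0.45 became -0.32 without VM98. Gene counts cannot tell fused from normal transcripts, and both genes are also expressed by other spleen cells, so these levels do not measure the fusion. In the Vav and Rac list, 1 of 11 tested members did not overlap upward, Vav1 itself, and 1 downward, Cdc42. That is 9.09% each way, against 11.0% and 11.2% of all genes, so the list separated no more often than genes at large. Cdc42, a small GTPase, was at 1217, 1200.2 and 1354 CPM in the controls and 878, 554 and 1088 CPM in the tumors. Rac2, the blood cell RAC, had 1630.4, 1555 and 1779.9 against 1379.9, 1136 and 1760.4 CPM. Of 6 tested class I myosins, Myo1g, the lymphocyte form, was higher in all tumors at 224, 228 and 286 CPM in the controls and 499, 415 and 383 CPM in the tumors, as was Myo1d at lower levels. These made 33.3% of the list, against 11.0% of all genes.

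T cell content did not move one way. The summed level of the 17 T cell identity genes was 2261, 1565 and 1841 CPM in the controls and 1493, 3886 and 1543 CPM in the tumors, so VM58 stood above all controls and the other tumors did not. Cd4 (ENSMUSG00000023274; chromosome 6, 124864692 to 124888221, minus strand) was at 53, 52.9 and 58.7 CPM in the controls and 77.4, 208 and 59 CPM in the tumors, with VM98 level with the highest control. Of the list, 3 members did not overlap upward, Cd4, Cd5 and Cd6, against a share of 11.0% of all genes. Cd6, a receptor that tunes T cell receptor signals, had 86.6, 69.9 and 70.8 against 163, 679 and 183 CPM, and Cd5, its relative, 35, 39.9 and 31.5 against 67.8, 246 and 66 CPM. CD3 subunits and the receptor constant genes overlapped between groups, with Cd3e at 88.1, 62.2 and 74.4 against 51.2, 171 and 53.3 CPM and Trac at 126, 84.6 and 107 against 85, 221 and 85.7 CPM. Of the CD8 coreceptor genes, Cd8b1 was lower in every tumor (183, 88.5 and 80.5 CPM in the controls and 11.8, 13.4 and 65.2 CPM in the tumors), whereas Cd8a reached control levels in VM98 (88.5, 53.1 and 48.3 against 18.5, 23.6 and 51.8 CPM). Among the 6 spleens VM58 had the highest summed T cell identity level.

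One spleen carried a dominant T cell receptor segment. The most counted Trbv gene, a variable segment of the receptor beta chain, took 46.5% of the 1737 Trbv counts in VM388 (exact Clopper-Pearson 95% interval 44.1 to 48.9%), and this was Trbv3 (ENSMUSG00000076463; chromosome 6, 41048290 to 41048828, plus strand). The same segment took 51% of Trbv counts in the CD4+ cells of that mouse. Trbv3 was also the most counted segment in control CD4+ cells of VM211 and VM216, at 12.7% and 15.2%. Its reference V exon, from GENCODE M21 on GRCm38 (chr6:41048589-41048828, plus strand), is shown because it is the one segment whose share set a tumor spleen apart; capitals mark the end of the exon from its last TGTGCC on, where the junction with the next segment begins.
Trbv3: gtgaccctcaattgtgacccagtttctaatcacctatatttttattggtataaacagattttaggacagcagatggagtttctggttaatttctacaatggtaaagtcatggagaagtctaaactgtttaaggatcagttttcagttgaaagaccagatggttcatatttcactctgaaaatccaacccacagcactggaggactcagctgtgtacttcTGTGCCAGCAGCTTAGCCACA
The leading segment of VM58 was also Trbv3 but took 13.3% (12.3 to 14.2%), and that of VM98 was Trbv12-2 at 11.5% (10 to 13.2%). Controls stood at 16% for Trbv12-2, 11.4% for Trbv16 and 9.91% for Trbv13-3, so the leading share in VM58 and VM98 lay inside the control range. The mean leading share was 23.8% ± 19.7 (SD, n = 3) in tumors and 12.4% ± 3.19 (n = 3) in controls, and an exact two-sided permutation test gave p = 0.50, where 3 against 3 cannot go below 0.10. Without VM388 the difference was -0.0444 percentage points. Intervals cover counting error only, and amplified reads are not independent molecules. In the alpha chain, VM98 carried Trav6n-6 at 7.84% of 1071 Trav counts in spleen and 14.2% in its CD4+ cells, where it was the most counted one as well. The spleen share lay within the 5.13 to 10.8% that the leading Trav gene took in control spleens. The CD4+ share lay above the 6.58, 5.33 and 5.415% that the leading Trav gene took in control CD4+ cells. Trav14-2 likewise led in both libraries of VM388, at 7.06% in spleen and 6.3% in CD4+ cells. Reads of neighbouring, nearly alike V segments may be counted for one another.

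**Figure D2:**
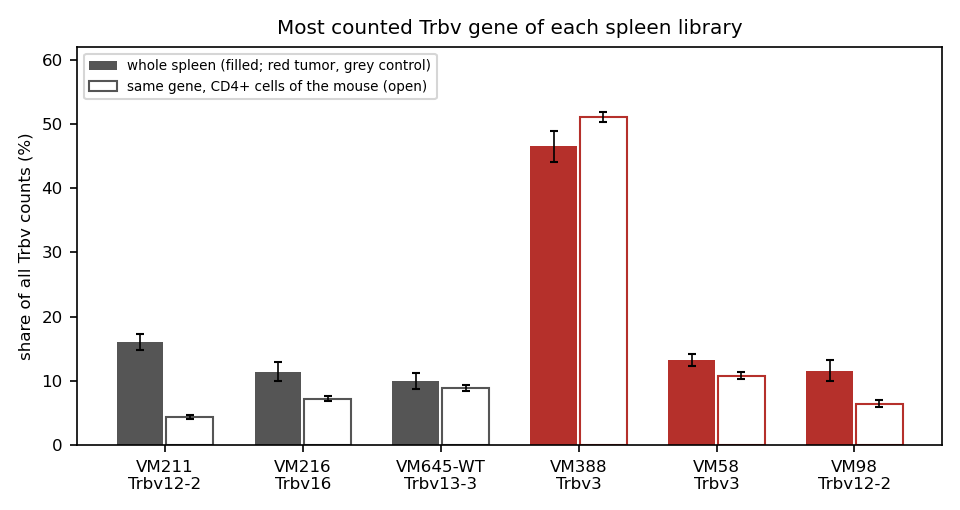
Percent of Trbv counts (y axis) held by the leading Trbv gene of each spleen (filled bars; named under the mouse) and by that same gene in CD4+ cells of the mouse (open bars), with exact 95% binomial intervals. VM388 stands at 46.5%, and the other 5 spleens lie between 9.91% and 16%.

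Most tested genes of the T helper 2 state were higher in all tumors. Of 8 tested members, 6 did not overlap (75% against 11.0% of all genes) and the median log2 fold change was 2.20, against 0.04 over all genes tested. Maf, a transcription factor of this state, and Ccr8, a chemokine receptor, overlapped through VM98, at 18.6, 22.1 and 15.2 against 27.6, 96.1 and 20.6 CPM and 3.26, 4.05 and 7.62 against 10.3, 58.6 and 3.29 CPM. Il5, Il13 and Ptgdr2 were too low to test. Gata3 (ENSMUSG00000015619; chromosome 2, 9857078 to 9890034, minus strand), the master regulator, was at 18, 14.3 and 14.4 CPM in the controls and 28.7, 42.3 and 31.2 CPM in the tumors, a log2 fold change of 1.13 ± 0.24. Il4, the cytokine named above, had 2.62, 0.876 and 3.15 against 9, 20.4 and 3.57 CPM, and Il10, a suppressive cytokine, 2.48, 2.26 and 1.03 against 8.17, 13 and 3.94 CPM. Il1rl1, the IL-33 receptor, stood at 1.59, 1.53 and 1.69 CPM in the controls and 12.8, 4.48 and 7.94 CPM in the tumors, with no overlap and a log2 fold change of 2.38 ± 0.46. Areg, an epidermal growth factor receptor ligand, and Ccr4, a skin-homing chemokine receptor, followed at 0.529, 0.255 and 0.364 against 3.76, 4.39 and 0.677 CPM and 2.25, 1.24 and 5.27 against 5.38, 6.57 and 8.04 CPM. VM98 was the lowest tumor for Il4, Il10 and Areg, and for Il4 it came close to the highest control. In CD4+ cells Gata3 was at 137, 103 and 108 CPM in control and 332, 136, 222 and 237 CPM in tumor CD4+ cells, and Il4 at 7.75, 8.1 and 6.87 CPM in control and 113, 54.8, 16.1 and 40.1 CPM in tumor CD4+ cells, and neither passed there. All 4 tumors lay above all controls for Il4, whereas Gata3 of VM58 lay within the control range.

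Several follicular helper, regulatory, inhibitory receptor and costimulatory genes were high in VM388 and VM58, with VM98 near the control range. Tox2, a follicular helper transcription factor, was at 5.9, 5.58 and 8.81 CPM in the controls and 65.9, 169 and 11.8 CPM in the tumors, a log2 fold change of 3.60 ± 0.87 that became 4.15 without VM98. Pdcd1, which encodes the checkpoint receptor PD-1, had 26.1, 26.9 and 34.7 against 81.1, 347 and 20.1 CPM, Icos, a costimulatory receptor, 34.9, 34.9 and 42.7 against 123, 274 and 32.8 CPM, and Tnfrsf4, which encodes OX40, 43.7, 41.6 and 50.1 against 103, 379 and 45 CPM. Foxp3, the regulatory T cell factor, had 11.9, 12.1 and 13.1 against 28.6, 128 and 14.9 CPM, and Ctla4, a brake on costimulation, 20, 21.6 and 24.2 against 85.5, 136 and 28.4 CPM. VM98 exceeded the controls by a small margin for Foxp3, Ctla4 and Tox2. Counting VM388 and VM58 alone, 5 of 7 follicular helper, 5 of 8 regulatory and 5 of 10 inhibitory genes lay above all controls, where 20.5% of all genes did. With VM98 these counts were 1, 2 and 0 (14.3%, 25% and 0%, with 11.0% of all genes). Icos and Tnfrsf4 are on the list of activation and costimulation. Of its 14 genes 7 lay above all controls in VM388 and VM58, and 0 with VM98. In VM388 and VM58 1 of the 14 lay below them, Cd44 (373, 408 and 346.7 against 182, 135.6 and 390 CPM).

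Naive T cell genes that separated the groups were lower in tumors, and cytotoxic genes went in both directions. Ccr7, the receptor that guides naive T cells and dendritic cells into lymphoid tissue, was at 184, 138 and 234 CPM in the controls and 47.6, 56.2 and 44.5 CPM in the tumors, a log2 fold change of -1.91 ± 0.25 (edgeR unadjusted p = 0.000133). S1pr1, needed to leave lymphoid tissue, had 354, 275 and 326 against 172, 163 and 154 CPM, and Dapl1, a marker of naive T cells, 8.21, 2.55 and 6.46 against 0.414, 0 and 1.45 CPM. In all, 4 of 11 naive genes did not overlap downward, against 11.2% of all genes; Tcf7 was not among them, at 99.2, 83.3 and 95.4 against 32.1, 263 and 41.6 CPM. Gzmb, a granzyme of cytotoxic cells, was the one cytotoxic gene higher in all tumors (32.7, 19.6 and 26.5 CPM in the controls and 142, 152 and 50.7 CPM in the tumors; log2 fold change 2.13 ± 0.44). Prf1, the pore-forming protein that delivers granzymes, was lower in all of them (68, 34.5 and 33 against 23.5, 29.9 and 23 CPM). Of the 13 T helper 1 and cytotoxic genes tested, 1 was higher and 2 were lower in all tumors. These shares of 7.69% and 15.4% lay near the 11.0% and 11.2% of all genes. In CD4+ cells Gzmb was at 33, 32.8 and 25.9 CPM in control and 1165, 341, 35.9 and 152 CPM in tumor CD4+ cells.

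Most NK cell markers were lower in every tumor spleen. Of 7 members 6 did not overlap, 85.7% against 11.2% of all genes, and the median log2 fold change was -2.09. Klrd1, the CD94 subunit of NK receptors, stood at 63.7, 49.7 and 35.7 CPM in the controls and 6.69, 7.29 and 20.9 CPM in the tumors, a log2 fold change of -2.10 ± 0.50. Klrk1, which encodes NKG2D and is also expressed by CD8+ T cells, had 174, 109 and 83.7 against 14.5, 21 and 53.9 CPM. Ncr1, which encodes NKp46 and is the most NK-restricted of the list, overlapped, at 54.8, 28.2 and 33.7 against 4.48, 3.41 and 29.7 CPM: VM388 and VM58 were below every control, and VM98 was within the control range. DESeq2 called 4 of the 7 lower, where it called 1.40% of all genes lower. Without VM98 edgeR called 6, where 2.27% of all genes were called lower. Genes of the Klra family are near-identical copies, so the split of reads between Klra4 and Klra8 is uncertain.

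Most marginal zone B cell markers were lower in all tumors. Cr2, the complement receptor CD21 of marginal zone and follicular B cells, was at 250.2, 563 and 511 CPM in the controls and 8.89, 97.2 and 34.3 CPM in the tumors, a log2 fold change of -3.24 ± 0.84. Fcrl5, a marginal zone Fc receptor-like protein, had 96.5, 79.6 and 58.2 against 5.55, 24.3 and 21.6 CPM, Cd1d1, which presents lipids to NKT cells, 76.6, 123 and 127 against 14.3, 60.5 and 38.1 CPM, and S1pr3, a sphingosine-1-phosphate receptor, 105, 71.6 and 59.7 against 50.2, 21.9 and 32.2 CPM. Those 4 of 6 members did not overlap (66.7% against 11.2% of all genes). Of 14 B cell identity genes 7 did not overlap downward (50%, with 11.2% of all genes), among them Cd79a, a signalling subunit of the B cell receptor (2030.2, 1691 and 2074 against 1077, 1179 and 489 CPM), Blk, a kinase below it (197, 160.1 and 162 against 102, 94.3 and 58.9 CPM), and Fcrla, an Fc receptor-like protein inside B cells (184, 167 and 199 against 87, 75.3 and 41.1 CPM). VM98 had the lowest summed level of the list, 2222 CPM, where the other tumors had 6264 and 7734 and the controls 7918 to 8880.1 CPM. MHC class II genes followed VM98 in the same way, with Cd74, the class II chaperone, at 11218, 10189 and 10289 against 7950.5, 11400.5 and 2548 CPM.

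Several germinal centre genes were high in VM388 alone. Rgs13, a regulator of germinal centre B cell signalling, was at 6.29, 13.9 and 17.7 CPM in the controls and 220.3, 0.464 and 2.37 CPM in the tumors, and Gcsam, a germinal centre adaptor, had 10.8, 17.7 and 19.2 against 207, 15.1 and 10.2 CPM. VM58 and VM98 were in or below the control range for these genes. S1pr2, which confines B cells to the germinal centre, was higher in every tumor (16.2, 30 and 22.8 against 188, 39.9 and 35.2 CPM).

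The sharpest contrast in immunoglobulin was in the switched classes IgG1 and IgE. Ighg1 (ENSMUSG00000076614; chromosome 12, 113325240 to 113330523, minus strand), the constant gene of IgG1, was at 70.3, 382 and 242 CPM in the controls and 20706, 1557 and 6729.7 CPM in the tumors, a log2 fold change of 5.38 ± 1.15. Ighe (ENSMUSG00000087642; chromosome 12, 113269260 to 113273248, minus strand), that of IgE, was at 0.111, 1.82 and 5.27 CPM in the controls and 366, 53.1 and 152 CPM in the tumors, a log2 fold change of 6.31 ± 1.36. For both, the lowest tumor was several times the highest control. DESeq2 called both higher (adjusted p 2.63e-08 and 0.000519), and edgeR gave unadjusted p-values of 0.00228 and 0.00238. Of the 12 constant genes tested 2 lay higher in all tumors, these ones, and 1 lower, the lambda light chain gene Iglc3 (883, 649 and 747 against 523, 254 and 252 CPM). As shares of the list, 16.7% and 8.33%, these counts lay near the 11.0% and 11.2% of all genes. The constant genes of the other heavy chain classes overlapped between the groups. Ighd, for IgD, had 1175, 762 and 1096 against 393, 993 and 135 CPM, with VM98 lowest. Igha, for IgA, had 5637, 12110.3 and 35698 against 644, 429 and 16736 CPM, Ighm, for IgM, 22399.5, 21301 and 9141 against 1091, 3589 and 26852 CPM, and Ighg2b, 624.9, 4048 and 2153 against 133, 339 and 6758 CPM. VM388 and VM58 were below every control for Igha, Ighm and Ighg2b, and VM98 was within the control range or above it. Igkc, the kappa light chain, had 38523, 37722 and 57311 against 4811, 3269 and 46714 CPM. Plasma cell genes overlapped, with Jchain, the joining chain of IgM and IgA, at 6579, 6951 and 17353 against 5350.0, 254 and 9530.0 CPM, except Prdm1, the factor Blimp-1 of plasma cells and effector T cells, which was higher in all tumors (34.6, 23 and 30.4 against 53.4, 77.2 and 56.3 CPM). Gamma constant genes resemble each other, so reads may be shared among them. In the CD4+ cell libraries Ighg1 was at 3.99, 40.7 and 64.7 CPM in control and 2173, 237, 12.1 and 1545 CPM in tumor CD4+ cells. These libraries also held B cell genes such as Cd79a, and which cells carried the Ighg1 counts was not tested.

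**Figure D3:**
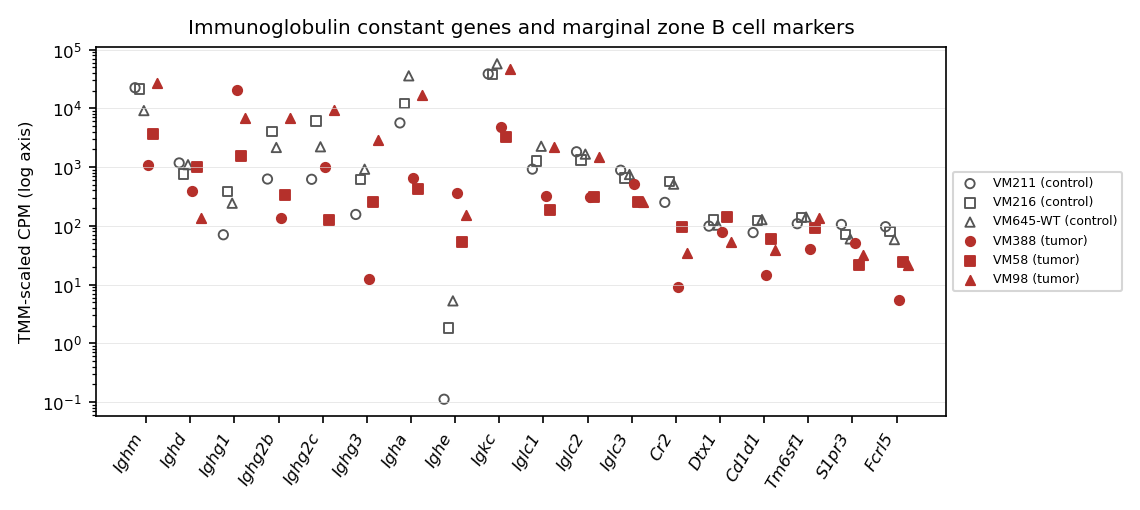
TMM-scaled CPM (log axis) of 12 immunoglobulin constant genes and 6 marginal zone B cell markers in 6 spleens; grey open symbols are controls and red filled symbols tumors. Ighg1 and Ighe are higher in all 3 tumors, and Cr2, Cd1d1, S1pr3 and Fcrl5 are lower in all 3.

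Most red pulp macrophage and iron recycling genes were lower in every tumor, VM98 included. Of 12 members 10 did not overlap, 83.3% against 11.2% of all genes; the median log2 fold change was -1.85, and -1.92 without VM98. Spic (ENSMUSG00000004359; chromosome 10, 88674772 to 88685015, minus strand), the transcription factor required for these macrophages, was at 71.8, 138 and 66.6 CPM in the controls and 20.5, 36.5 and 24 CPM in the tumors, a log2 fold change of -1.77 ± 0.37. Vcam1, an adhesion molecule they display, had 222, 558 and 179 against 49.7, 94.8 and 82.5 CPM. Of the iron genes, Hmox1, which opens the haem ring, had 122, 389 and 170.4 against 60.9, 58.3 and 74.6 CPM; Blvrb, a biliverdin reductase, 83.8, 114 and 95.4 against 36.6, 53.4 and 29 CPM; and Slc40a1, the iron exporter ferroportin, 242, 509 and 252 against 10, 12.3 and 159 CPM. Hpgd, which inactivates prostaglandins, was at 95.7, 136 and 105 CPM in the controls and 9.48, 13.1 and 34.8 CPM in the tumors and Treml4, a receptor of splenic macrophages, at 95.8, 142 and 166 CPM in the controls and 21.1, 47.1 and 36.4 CPM in the tumors; their log2 fold changes were -2.56 ± 0.50 and -1.95 ± 0.36. Fcna and Cd5l, which encode secreted proteins of tissue macrophages, overlapped, with Cd5l at 40.5, 81.2 and 22.5 against 144, 73 and 31.7 CPM. DESeq2 called 6 of the 12 lower, where it called 1.40% of all genes lower. Without VM98 edgeR called 2, where 2.27% of all genes were called lower. In CD4+ cells Spic was at 174, 170.1 and 257 CPM in control and 18.8, 32.5, 5.7 and 15.4 CPM in tumor CD4+ cells, and it fell there (edgeR adjusted p = 0.0143; 0.620% of 19503 genes passed). The CD4+ cell libraries also held other macrophage genes, with Csf1r at 527, 722 and 599 CPM in control and 207, 543, 25.5 and 206 CPM in tumor libraries. Which cells carried the Spic counts was not tested.

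**Figure D4:**
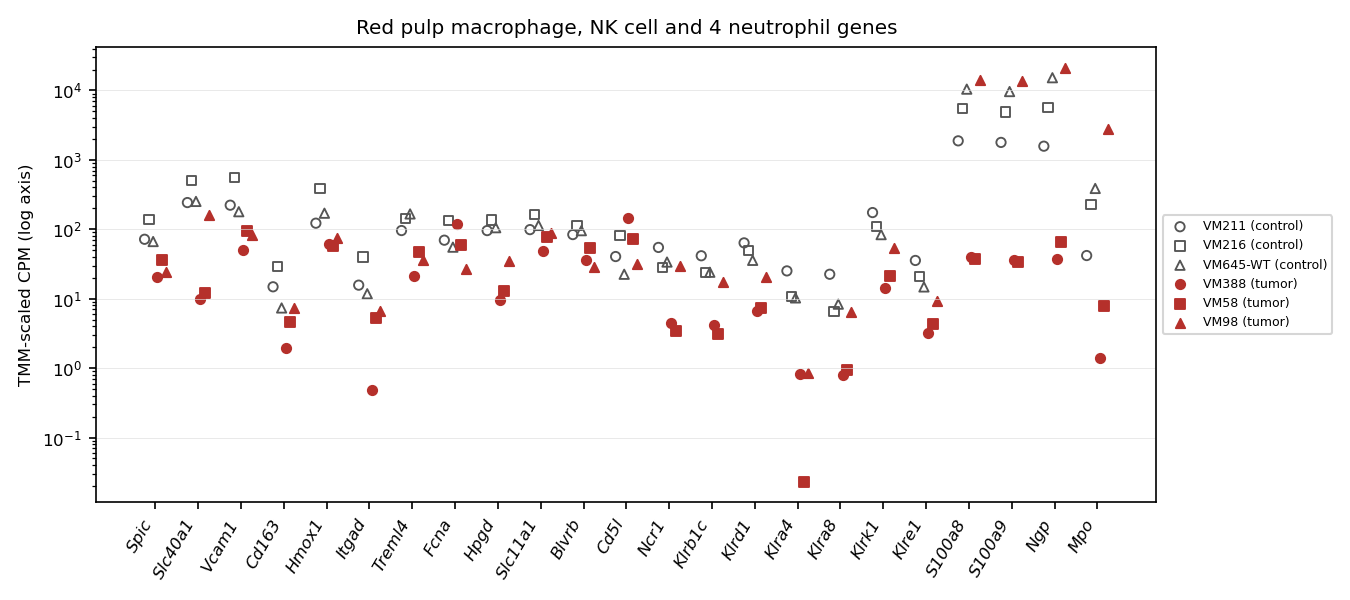
TMM-scaled CPM (log axis) of 12 red pulp macrophage genes, 7 NK cell markers and 4 neutrophil genes in 6 spleens; grey open symbols are controls and red filled symbols tumors. Spic, Vcam1 and Hmox1 are lower in all 3 tumors, whereas S100a8, S100a9, Ngp and Mpo are low in VM388 and VM58 only.

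Other macrophage genes split the tumors or went both ways. Marco, a scavenger receptor of marginal zone macrophages, was at 1.89, 2.55 and 8.61 CPM in the controls and 191, 131 and 3.02 CPM in the tumors, and Cd209b, the receptor SIGN-R1 of the same cells, at 0.807, 0.693 and 18.2 CPM in the controls and 174, 120.3 and 0.0616 CPM in the tumors; both were high in VM388 and VM58 and at control level or below in VM98. Arg1, the arginase of alternatively activated macrophages, had 4.2, 2.48 and 4.97 against 66, 72.5 and 6.8 CPM, a log2 fold change of 3.64 ± 0.84, and Ccl24, an eosinophil-attracting chemokine of such macrophages, 2.37, 1.42 and 2.28 against 95.6, 79.4 and 5.97 CPM, a log2 fold change of 4.89 ± 0.98. For these VM98 was above every control and well below the other tumors. Ccl8, a monocyte chemoattractant, was at 0.835, 1.86 and 4.7 CPM in the controls and 226, 473 and 0.185 CPM in the tumors, lowest of all in VM98. In the list of alternatively activated macrophage genes 2 of 11 were higher in all tumors, Arg1 and Ccl24, and 2 were lower. That is 18.2% each way, against 11.0% and 11.2% of all genes. Lower were the lipid-handling genes Pparg and Cd36 (12.4, 19.9 and 18 against 6.14, 4.83 and 7.7 CPM and 70.8, 96.4 and 118 against 19.8, 15.9 and 38.5 CPM). Chil3 and F13a1, the members of highest mean level, were highest in VM98 (652.7, 2646 and 4749.6 against 991, 150.3 and 12587 CPM and 161, 337 and 264.7 against 73, 48.5 and 1042.4 CPM). Cx3cr1, the fractalkine receptor of monocytes and dendritic cells, stood at 105, 115 and 135 CPM in the controls and 14.7, 32.4 and 30.5 CPM in the tumors, a log2 fold change of -2.19 ± 0.33. Il1b (ENSMUSG00000027398; chromosome 2, 129364570 to 129371139, minus strand), an inflammatory cytokine of myeloid cells, was at 349, 400.4 and 276 CPM in the controls and 16.4, 43.1 and 16 CPM in the tumors, a log2 fold change of -3.76 ± 0.47 (edgeR unadjusted p = 9.33e-05). Of the 18 monocyte and macrophage markers 3 were lower in all tumors, Cx3cr1, Cd68 and Tyrobp (16.7% against 11.2% of all genes). The median log2 fold change was -0.53. Without VM98 it was -1.46: 12 of the 18 were below all controls (66.7%, with 19.8% of all genes). In that fit edgeR called 8 of them lower, where 2.27% of all genes were called lower. Lyz2, the lysozyme of macrophages and granulocytes, had 10746, 16461 and 20820.1 against 3001, 2606 and 18953 CPM, and Cybb, a subunit of the phagocyte oxidase, 1127, 1331 and 1398 against 440.5, 477 and 1859 CPM, both at control level or above in VM98. Csf1r, the receptor of macrophage colony-stimulating factor, overlapped in VM388 and VM58 too (378, 719 and 516 against 396, 613 and 478 CPM).

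Several complement genes were higher in every tumor. C4b, a component of the classical pathway, was at 5.43, 12.7 and 12.1 CPM in the controls and 55.3, 67.3 and 152 CPM in the tumors, a log2 fold change of 3.18 ± 0.52, and C3, the central component, at 66.8, 148 and 209.7 CPM in the controls and 232, 456 and 977 CPM in the tumors, a log2 fold change of 1.97 ± 0.62. Cfb, of the alternative pathway, and C3ar1, the receptor of C3a, also did not overlap, which made 4 of 9 members (44.4%, with 11.0% of all genes). The initiating subunit gene C1qb overlapped (114, 279 and 123 against 253, 273 and 99 CPM).

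Granulocyte and progenitor genes separated VM98 from the other tumors. S100a8, a calcium-binding protein abundant in neutrophils, was at 1877, 5499.6 and 10429 CPM in the controls and 39.5, 37.3 and 14155 CPM in the tumors, and Ngp, a neutrophil granule protein, at 1573, 5646 and 15233 CPM in the controls and 37.2, 66 and 21240.4 CPM in the tumors. Each of the 16 neutrophil genes was lower in VM388 and VM58 than in any control (100%, with 19.8% of all genes). Without VM98, 13 of them passed, where 2.27% of all genes were called lower. VM98 was left out because its values stood apart, so these calls are no separate support. The median log2 fold change was -0.24 with VM98 and -6.08 without it. The controls themselves spread, from 7319.5 CPM summed over the list in VM211 to 48352 in VM645-WT. In VM98 precursor genes were the highest of the 6 libraries: Mpo, the myeloperoxidase of granule precursors, had 41.8, 226 and 387 against 1.41, 7.8 and 2763 CPM, Elane, neutrophil elastase, 33.7, 167 and 296 against 0.62, 1.56 and 1233 CPM, and Prss34, a basophil protease, 16.4, 40.9 and 105 against 2.34, 0.116 and 973 CPM. Erythroid and platelet genes did the same at low levels, with Hba-a1, an alpha globin, at 2.37, 29.5 and 12.1 against 0.655, 0.209 and 113 CPM and Itga2b, the platelet integrin, at 4.26, 3.69 and 4.6 against 1.24, 1.63 and 20.6 CPM. Haemoglobin genes are near-identical copies, so their counts are uncertain. Cxcr2, the chemokine receptor of mature neutrophils, was lower in all tumors, VM98 included (134, 222 and 131 against 6.31, 9.61 and 72.7 CPM).

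Some contractile genes were higher in every tumor, at low levels. Smtn, a smooth muscle cytoskeletal protein, was at 1.42, 3.28 and 5.46 CPM in the controls and 14.1, 49.2 and 34.8 CPM in the tumors, a log2 fold change of 3.27 ± 0.65, and Actg2, a smooth muscle actin, at 0.668, 1.72 and 1.42 CPM in the controls and 29.4, 34.4 and 5.76 CPM in the tumors, a log2 fold change of 4.19 ± 0.75. In CD4+ cells Smtn was at 6.93, 7.97 and 10.2 CPM in control and 179, 146, 8.79 and 36.1 CPM in tumor CD4+ cells, and did not pass there. Which cells carried the Smtn counts was not tested. Acta2, the actin most used to mark smooth muscle, was high in VM388 only (6.1, 6.93 and 6.13 against 77.1, 0.0697 and 3.94 CPM), and Myh11 and Cnn1, which define smooth muscle, were too low to test. Collagens were near 0, with Col1a1 at 0, 0.0365 and 0 against 0.31, 1.07 and 0.523 CPM, where the controls hold at most 1 count each.

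Cell division genes were higher in VM388 and VM98 and not in VM58. Mki67, made by dividing cells (gene model ENSMUSG00000031004; chromosome 7, 135689784 to 135716361, minus strand), was at 24.8, 52.6 and 50.8 CPM in the controls and 211, 49.3 and 246 CPM in the tumors, a log2 fold change of 1.98 ± 0.61. Of the 20 division genes 0 separated the groups, where 11.0% of all genes were higher and 11.2% lower in all tumors. In the scaling of the 6 spleens VM58 lay in the control range for each. With VM98 left out and the rest rescaled, VM388 and VM58 were both above the controls for 2 of them. That is 10%, below the 20.5% of all genes. The median log2 fold change over the 20 genes in all 6 spleens was 1.74. Ccnb1, a mitotic cyclin, had 19.6, 55.8 and 70.3 against 242, 40.2 and 302 CPM. Espl1, the separase that opens sister chromatids, is on no list and did separate them, at 4.01, 8.07 and 9.4 CPM in the controls and 47.6, 29.1 and 44 CPM in the tumors, a log2 fold change of 2.49 ± 0.39. 

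Several DNA replication genes were higher in all 3 tumors. Of 15 members 7 did not overlap (46.7% against 11.0% of all genes), and the median log2 fold change was 1.36. Mcm2 (ENSMUSG00000002870; chromosome 6, 88883474 to 88898780, minus strand), a subunit of the replicative helicase, stood at 37.1, 47.3 and 59.6 CPM in the controls and 233, 81.4 and 155 CPM in the tumors, a log2 fold change of 1.70 ± 0.40, and Mcm6 (ENSMUSG00000026355; chromosome 1, 128331590 to 128359664, minus strand), another subunit, at 98.6, 118 and 134 CPM in the controls and 322, 183 and 293 CPM in the tumors, a log2 fold change of 1.19 ± 0.28. Mcm3 and Mcm4 had 52.1, 73.8 and 80.3 against 215, 103 and 212 CPM and 84, 79.3 and 91.2 against 259, 97.2 and 169 CPM. Cdt1, which loads the helicase, had 27.8, 22.9 and 29.5 against 35.4, 46.4 and 51.5 CPM, Gins2, part of its active complex, 5.29, 5.07 and 5.99 against 20.1, 9.38 and 15.3 CPM, and Chaf1a, a histone chaperone behind the fork, 2.78, 7.81 and 11.5 against 35.7, 17.7 and 42.8 CPM. Rrm1, the large subunit of ribonucleotide reductase, overlapped, with VM58 in the control range (72.9, 107 and 102 against 242, 90.8 and 329.9 CPM). Dnmt1, the maintenance DNA methyltransferase that works at the fork, is on no list and had 43.8, 52.3 and 58 against 158, 108 and 184 CPM.

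E2F factors drive S phase genes, and the promoters of this group were searched for 3 sequences of the E2F type, TTTCGCGC, TTTGGCGC and TTTCCCGC, on both strands, in the 250 bases before each RefSeq start. Of 13 replication genes with a promoter in the table, 4 genes held a match, Mcm5, Mcm6, Mcm7 and Cdc6. By promoters this was 4 of 14, where 1.53% of all 32851 promoters held one. Only Mcm6 of these genes is among the 7 that did not overlap between tumors and controls. Mcm2, Mcm3, Cdt1 and Chaf1a, also among the 7, held 0 matches, and Mcm4 and Gins2 had no promoter to search. A role of E2F in the higher levels was not tested. The promoters of Mcm6 and Mcm2 are shown because both genes were higher in every tumor while their sequences differ in the search; capitals mark the matches (GRCm38.p6; Mcm6 at chr1:128359706-128359955 and Mcm2 at chr6:88898781-88899030, both minus strand, shown 5′ to 3′ along the gene).
Mcm6: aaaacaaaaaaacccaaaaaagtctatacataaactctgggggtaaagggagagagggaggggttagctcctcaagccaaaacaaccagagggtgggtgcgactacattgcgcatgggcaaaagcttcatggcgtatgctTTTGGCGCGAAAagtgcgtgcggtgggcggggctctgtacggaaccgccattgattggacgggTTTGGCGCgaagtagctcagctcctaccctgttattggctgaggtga
Mcm2: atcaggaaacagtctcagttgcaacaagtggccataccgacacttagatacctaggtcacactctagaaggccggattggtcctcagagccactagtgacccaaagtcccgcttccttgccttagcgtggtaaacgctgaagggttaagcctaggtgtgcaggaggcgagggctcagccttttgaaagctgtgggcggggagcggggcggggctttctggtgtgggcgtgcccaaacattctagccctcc
Mcm6 holds 3 matches, of which a pair overlaps in the first capital run, and Mcm2 holds 0. A match is a description of letters only, and the absence of one says only that these letters are not in this window.

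Part of the metabolic and biosynthetic genes were higher in every tumor. Of 14 glycolysis genes 8 did not overlap upward (57.1% against 11.0% of all genes). Pfkp and Pfkl, platelet and liver forms of phosphofructokinase, were at 184, 150.1 and 131 CPM in the controls and 386, 312 and 279.8 CPM in the tumors and at 84.9, 81.5 and 75.9 CPM in the controls and 189.8, 226 and 129 CPM in the tumors, with log2 fold changes of 1.07 ± 0.24 and 1.17 ± 0.25. Pkm, pyruvate kinase, had 530.1, 794 and 781 against 1349, 998 and 1700.0 CPM, and Slc2a1, the glucose transporter GLUT1, 46.9, 45.3 and 38.6 against 63.8, 74.9 and 56.6 CPM. Ldha, lactate dehydrogenase, overlapped (738, 997 and 1044 against 1830.0, 1027 and 1446 CPM). In CD4+ cells Pfkp was at 269.6, 234 and 216 CPM in control and 638, 553, 769 and 453 CPM in tumor CD4+ cells and passed. Of 15 MYC and ribosome biogenesis genes 6 did not overlap upward (40% against 11.0% of all genes). Among them were Cad, which starts pyrimidine synthesis (29.3, 26.5 and 25.8 against 52.4, 72.3 and 49.8 CPM, log2 fold change 1.10 ± 0.21), and Bop1, a ribosome assembly factor (47.5, 60.4 and 56.3 against 124, 101 and 75.8 CPM). Npm1, a nucleolar protein, overlapped (356, 427 and 414 against 795, 308 and 345 CPM). Odc1, which starts polyamine synthesis, had 75.9, 88.9 and 90.7 against 349, 227 and 104 CPM. Of 8 hypoxia-induced genes 3 were higher and 1, Adm, lower in all tumors (37.5% and 12.5%, against 11.0% and 11.2% of all genes). Egln3, a hypoxia-induced oxygen sensor, was at 2.81, 4.71 and 4.77 CPM in the controls and 11.5, 25.2 and 12.4 CPM in the tumors, and Vegfa, the vascular growth factor, at 1.22, 3.1 and 2.88 against 3.76, 7.38 and 19.6 CPM. Adm, which encodes the vasodilator adrenomedullin, had 9.19, 7.63 and 4.31 against 1.1, 3.48 and 4 CPM, and Bnip3, a mitophagy receptor, overlapped (23, 29.6 and 21.6 against 37, 29.7 and 18.4 CPM).

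Across all genes, listed or not, further ones were named by their unadjusted p, since none passed; the rule required ranges that do not overlap. The higher group included Ccdc88b, a microtubule-binding protein of T cells and myeloid cells (29.3, 30.4 and 29.3 CPM in the controls and 64.1, 72.4 and 64.2 CPM in the tumors; log2 fold change 1.17 ± 0.16, edgeR unadjusted p = 0.000187). It also held Fzr1, the CDH1 activator of the anaphase-promoting complex (79.8, 81.8 and 79.9 against 165, 179.7 and 180.3 CPM; 1.12 ± 0.17), Impdh1, of guanine nucleotide synthesis (27.2, 28.1 and 31.2 against 56.7, 62 and 64.5 CPM; 1.08 ± 0.17), and Aars, the alanyl-tRNA synthetase (39.9, 47.3 and 44.7 against 117, 91.9 and 93.3 CPM; 1.20 ± 0.19). Srrt, Gpaa1, Lonp1 and Tedc1 belonged to it beside Espl1, Dnmt1 and C4b, with log2 fold changes of 1.09 ± 0.17, 1.30 ± 0.21, 1.05 ± 0.17 and 1.58 ± 0.27. Fzr1, Srrt and Lonp1 were tight within both groups: Srrt, an RNA processing factor, had 49.3, 49.5 and 52.8 against 113, 109 and 101 CPM, and Lonp1, a mitochondrial protease, 33.2, 31.3 and 29.6 against 67, 68.6 and 58.8 CPM.

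In the lower group, beside Il1b, Ccr7 and Cx3cr1, stood Lyz1, a lysozyme (148, 81.4 and 75.2 CPM in the controls and 14.7, 16.3 and 24.3 CPM in the tumors; log2 fold change -2.46 ± 0.35), whose reads may be shared with the near-identical Lyz2, and Steap4, a metalloreductase (15.8, 55.8 and 13.4 CPM in the controls and 0.655, 0.604 and 1.26 CPM in the tumors; -5.07 ± 0.73). Adgre4, an adhesion receptor of resident monocytes, had 156, 229 and 214 against 55, 66.7 and 74.2 CPM (-1.61 ± 0.24), and Cd300ld, a myeloid immunoglobulin-like receptor, 128, 211 and 156 against 37.9, 53.1 and 53.1 CPM (-1.78 ± 0.27). Rnase6, an antimicrobial ribonuclease, had 335, 239 and 325 against 112, 127 and 96.6 CPM (-1.42 ± 0.23). H2-Q1, Gngt2, Crip2 and Mblac2 completed the group, with log2 fold changes of -2.04 ± 0.31, -1.32 ± 0.21, -1.81 ± 0.27 and -1.72 ± 0.25; H2-Q1 belongs to a family of near-identical class I genes, and its count is uncertain.

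Several genes known to respond to tissue handling were lower in tumors. Of 10 dissociation and immediate-early genes 4 were lower in all tumors (40% against 11.2% of all genes). Fos and Dusp1, induced within minutes of a stimulus, had 206, 142 and 117 against 13.8, 18.2 and 63.2 CPM and 377, 382 and 256 against 27.9, 82.8 and 78.9 CPM. Hspa1a, a heat shock chaperone, had 57.6, 81.2 and 35.7 against 10.8, 7.15 and 33 CPM, and Atf3, a stress factor, 19.3, 21.5 and 20.7 against 15.2, 18.3 and 17.8 CPM. The summed level of the list was 2069, 1837 and 1037 CPM in the controls and 392, 932 and 767 CPM in the tumors. Mitochondrially encoded transcripts took 2.099 to 3.158% of gene counts in controls and 0.808 to 2.416% in tumors. The part of these differences in the results above was not tested.

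Tumor effects were next compared with those of CD4-CreERT2 spleens, a model whose Cre needs tamoxifen to act. Its libraries came from tumor mice VM231, VM236 and VM294 and controls A1, A2 and A3, and all 12 spleens were fitted together over 17784 genes. The tumor effect differed between the models for 8 genes (0.0450% of genes tested), all lower in CD4-Cre: Steap4, Lyz1, Clec1b, Gm6517, Arg2, Ifit1bl2, Il1b and Dusp1. Steap4 in CD4-CreERT2 was at 1.73, 2.29 and 1.66 CPM in the controls and 20.2, 17.6 and 70.7 CPM in the tumors, and the difference between the log2 fold changes was -9.30 ± 1.05 (edgeR adjusted p = 0.0136). Lyz1 was at 13.8, 13 and 12.8 CPM in the controls and 121, 43.1 and 141 CPM in the tumors there, a difference of -5.39 ± 0.64 (adjusted p = 0.0136). For Arg2, a mitochondrial arginase, CD4-CreERT2 values were 3.39, 3.66 and 2.33 CPM in the controls and 24.7, 12.1 and 26.4 CPM in the tumors, and CD4-Cre values were 16.6, 32 and 12.7 CPM in the controls and 0.758, 1.21 and 2.86 CPM in the tumors. Il1b in CD4-CreERT2 was at 32.2, 32.8 and 35.3 CPM in the controls and 40.3, 54.8 and 49.5 CPM in the tumors, below every CD4-Cre control in all 6 libraries, and the difference was -4.27 ± 0.55 (adjusted p = 0.0136). Gata3, Ighg1 and Cr2 did not pass this test. Ighg1 was at 322, 86.8 and 219.9 CPM in the controls and 4934, 932 and 67702 CPM in the tumors in CD4-CreERT2, a difference of -1.43 ± 1.81 (adjusted p = 0.685). The number of genes passing rested on single libraries: it was 0 without VM388 or without A1, A2 or A3, 1 without VM216 or VM58, 685 without VM98, and 18, 80 and 1383 without VM294, VM236 and VM231.

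Red pulp and neutrophil genes also lay apart between the models, without passing. Spic was at 19.2, 16.8 and 18.3 CPM in the controls and 36.3, 84.6 and 141 CPM in the tumors in CD4-CreERT2, where it rose by 2.27 ± 0.48 (adjusted p = 0.0496; 0.973% of genes passed), and the difference between models was -4.01 ± 0.67 (adjusted p = 0.0596). Vcam1 had 23.9, 21.8 and 70.5 CPM in the controls and 228, 192 and 132 CPM in the tumors, a difference of -4.30 ± 0.79 (adjusted p = 0.0653). The median over the 12 genes was 1.84 in CD4-CreERT2, where the median of all genes was 0.05, and -1.85 in CD4-Cre. Of the neutrophil genes, S100a8 was at 182, 146 and 85.9 CPM in the controls and 18094, 488 and 7635 CPM in the tumors in CD4-CreERT2, so the tumors there were all above their controls; the median over the 16 genes was 6.79 there. Control levels also differed between the sets: Spic was at most 19.2 CPM in CD4-CreERT2 controls and at least 63.1 CPM in CD4-Cre controls of this fit. The set a library belongs to and its Cre driver cannot be told apart.

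**Figure D5:**
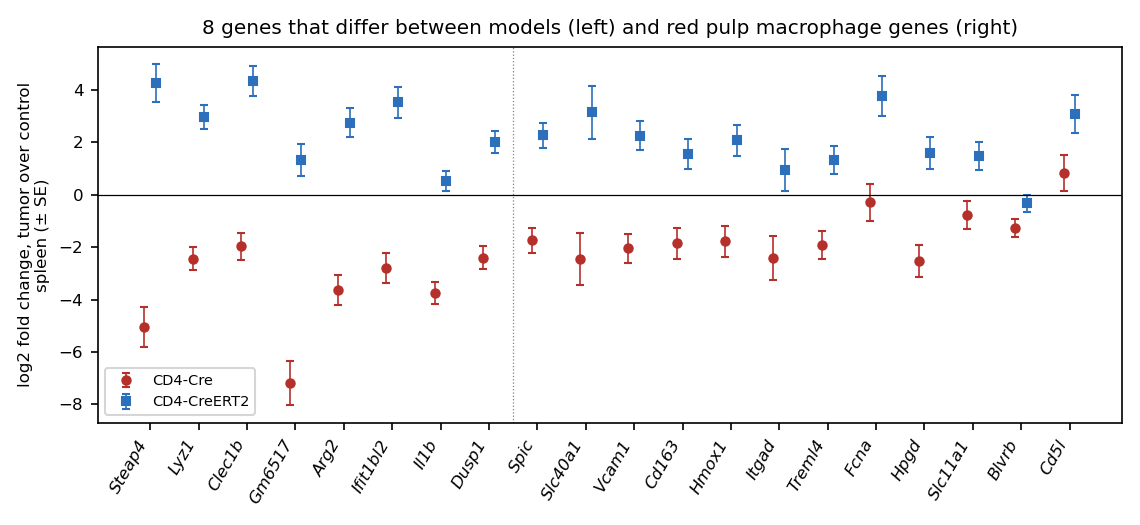
Log2 fold change of tumor over control spleen (y axis; bars are the SE, n = 3 against 3) in CD4-Cre (red circles) and CD4-CreERT2 (blue squares), from one fit of 12 spleens. The 8 genes left of the dotted line differ between models by the test; the 12 red pulp macrophage genes right of it do not pass it, and 10 of them lie on opposite sides of 0.

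The tumor effect of spleen was not shown to differ from that of sorted CD4+ cells for any gene. Of 19503 genes, 0 passed the interaction (0%; lowest adjusted p 0.196), and 1428 would at 0.05 without adjustment; DESeq2 gave 31 calls. The CD4+ tumor library of VM98 stood apart, with 34546 genes detected against 21702 to 22369 in the other CD4+ tumor libraries. For Cd4 itself the CD4+ cells had 743, 773 and 657 CPM in control and 671, 664, 367 and 665 CPM in tumor CD4+ cells, and for Cr2 47.5, 61.1 and 70.2 CPM in control and 0.861, 3.74, 2.27 and 4.39 CPM in tumor CD4+ cells, where it fell (adjusted p = 0.0222). The B cell gene Cd79a was also counted there, at 310, 202 and 270 CPM in control and 118, 128, 16.9 and 292 CPM in tumor libraries. Which cells carried the Cr2 counts was not tested. Ccr7 was at 235, 228 and 385 CPM in control and 22.7, 16.6, 11.5 and 79.2 CPM in tumor CD4+ cells and passed there.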

How the data were processed

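Gene counts per library were deposited by the authors as raw counts. HISAT2 2.1.0 and HTSeq 0.5.4 are named, with mm10, per the submitters' processing notes, and the labels' protocols give SMART-Seq v4 and Nextera XT libraries. The annotation and strand setting are not given in the sources used here, so overlapping genes may share counts. Rows that name no gene (32.7 to 39.6% of spleen counts) were left out. Here counts were filtered (filterByExpr), TMM-scaled and tested with edgeR 4.0.16 (quasi-likelihood, Benjamini-Hochberg, R 4.3.3). The 6 spleens were fitted alone, the 12 spleens of both models and the 13 CD4-Cre libraries each in one fit with an interaction. DESeq2 1.42.0, other scalings, no filter and leaving out each library were alternatives. Permutation tests and intervals used scipy 1.17.1. The scripts were tested on simulated data. CD4+ and spleen libraries of the same mouse were matched by the labels' mouse numbers, and their deviations from group means correlated at 0.159 to 0.333. The main interaction fit treated these libraries as independent, and the mouse as a replicate block was an alternative. Nothing says how mice were raised or batched, so p-values measure the spread between these mice. The members and gene lists were chosen with earlier results of these data known. Across all genes, the 12 per direction with the smallest p, ranges that do not overlap and a mean log2 CPM of at least 3 were chosen, leaving out sex-linked and ribosomal protein genes, antigen receptor segments, unnamed gene models and pseudogenes; a few genes are not reported here. Coordinates came from GENCODE by symbol and promoters from RefSeq.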

Additional observations from a re-analysis of the deposited data

Results flagged for a closer look

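The tumor effect in spleen differed between CD4-Cre and CD4-CreERT2 by the interaction test for 8 genes, each lower in CD4-Cre. The differences in log2 fold change were -9.30 for Steap4, -5.39 for Lyz1, -6.31 for Clec1b, a platelet and myeloid lectin receptor, -8.50 for Gm6517, -6.39 for Arg2, -6.32 for Ifit1bl2, an interferon-induced gene, -4.27 for Il1b and -4.40 for Dusp1. Gm6517 was near 0 in the CD4-Cre tumors, so its fitted value depends on the prior count and is no bound.

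The CD4+ tumor library of VM98 had 34546 genes detected, far from the other 3 tumor libraries of CD4+ cells by the gap to its nearest neighbour. Chance sets apart about 1 in 20 such groups for a single measure. Total counts, unassigned counts and mitochondrial share were searched too, so a flag by chance on some measure is likelier than that.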

How the results depend on the processing

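The count of genes passing in spleen was 0, and stayed 0 under both other scalings, with sex as a term and with a 2-fold minimum. It was 183 with no filter on low counts, 597 with DESeq2, 1 with all 13 CD4-Cre libraries and 2 with all 12 spleens in the fit, and 0 to 608 when each library was left out. The count differing between models was 8, then 446 with no filter, 1015 with DESeq2 and 0 to 1383 with each library left out. The count differing between spleen and CD4+ cells was 0, then 2 with no filter, 31 with DESeq2, 0 to 0 with each library left out and 0 with the mouse as a replicate block. No paired analysis was possible within the spleen comparison because tumor and control spleens share no mouse number. Genes above all controls numbered 2458 to 3704, and genes below them 2412 to 3585, when each library was left out, an alternative chosen after seeing the data; fewer samples make separation easier. The leading Trbv share differed by 11.3 percentage points, by -1.82 for Trav, and by -0.0444 to 17.5 with each library left out. Log2 fold changes that turned sign when 1 library was left out, with their range, were Acta2 2.08 (-1.65 to 2.72), Bnip3 0.20 (-0.0218 to 0.47), Cd3e 0.29 (-0.48 to 0.60), Csf1r -0.12 (-0.32 to 0.18), Elane 1.31 (-7.18 to 2.06), Gcsam 2.29 (-0.31 to 2.86), Hba-a1 1.38 (-5.06 to 2.43), Ighg2b 0.08 (-3.23 to 0.82), Itga2b 0.90 (-1.51 to 1.43), Mpo 2.08 (-5.52 to 2.82), Myo1f 0.27 (-0.32 to 0.63), Ngp -0.07 (-7.14 to 1.01), Npm1 0.28 (-0.27 to 0.56), Prss34 2.59 (-5.45 to 3.54), Rgs13 2.56 (-3.13 to 3.21), S100a8 -0.32 (-7.22 to 0.39), Tcf7 0.28 (-1.29 to 0.74) and Trac 0.30 (-0.27 to 0.56). With sex as a term these turned too: Elane -2.95, Hba-a1 -1.01, Ighg2b -1.70, Itga2b -0.17, Mpo -2.28, Myo1f -0.11, Prss34 -0.64 and Tcf7 -0.41. Without VM98 the log2 fold changes of Chil3 and F13a1 also turned sign, from 0.77 to -2.17 and from 0.61 to -2.02. The cause was not tested. Only 3 spleens a group limit the precision, and genes near 0 counts could not be tested at this depth.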
